A study of Mus musculus with 4 samples.

Results

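The glycosyltransferase genes described here are 60 named mouse genes whose enzymes add GalNAc, GlcNAc, galactose, fucose or sialic acid to glycans made in the Golgi. They were chosen by symbol, and 60 of 60 were found among the 20827 autosomal protein-coding genes with measured DNA methylation. The 4 libraries came from colon of C57 mice: intestinal stem cells (ISCs) at postnatal day 0 (P0) and day 21 (P21), and differentiated epithelial cells at the same ages. Per the study's methods, mice with an Lgr5-EGFP-CreER knock-in were crossed with wild-type C57 mice. ISCs were sorted as EGFP-positive cells and the differentiated cells as EpCAM-positive and EGFP-negative cells. Litters were pooled at P0 and EGFP-positive offspring at P21. Whether P0 pups without the knock-in were left out is not stated, nor whether both sorts of an age came from the same mice. Mice were pooled for each library. Each group was thus 1 library of whole-genome bisulfite sequencing, so no difference below has a replicate check, and every test compares libraries rather than conditions.

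Mucin-type O-glycans start when a GalNAc transferase (Galnt) links GalNAc to serine or threonine, after which core enzymes (C1galt1, Gcnt) and extension enzymes lengthen and branch the chain, and fucosyl- and sialyltransferases cap it. N-glycans are branched by the Mgat enzymes and receive many of the same extensions and caps. In the colon these sugars coat the mucins and surface proteins of the epithelium. Methylation of a cytosine followed by guanine (CpG) is usually low in CpG islands (CGIs) at gene starts and high elsewhere, and it can be measured without knowing whether a gene is expressed. Expression was not measured here.

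Methylation level is the percentage of calls at CpGs that read as methylated, with both strands summed, in bins of 200 bp that held 2 or more CpGs and were covered by 10 or more calls in each of the 4 libraries. The 60 genes held 8004 such bins, from 12 in Fut7 to 674 in St3gal3 with a median of 89. The libraries held 1023427645 to 1188114423 calls in all, and the median depth of a bin in these genes was 64.5 and 69.0 calls in the ISC libraries of P0 and P21, and 103 and 84.0 calls in those of differentiated cells. To be called, a bin had to move by more than 15 percentage points with an adjusted p below 0.05 (Fisher's exact test, two-sided, Benjamini-Hochberg over the 4076373 autosomal bins). Intervals are 95% Wilson intervals and cover counting error only, since each group was 1 library. Intervals and tests treat each call as independent, although calls at neighbouring CpGs can come from the same read. Reads were not marked by molecular identifiers either, so the intervals can be too narrow. The promoters of cell type markers were read beside these. The CGIs of the epithelial genes Epcam, Cdh1 and Krt8 stood at 0.1 to 1.5% in the 4 libraries, but so did the CGI of the stromal gene Pdgfra, at 0.120 to 0.552%. Outside CGIs the blood cell genes Ptprc, Cd3e and Itgam stood at 67.0 to 89.0%, the epithelial genes Vil1 at 0 to 6.22% and Krt20 at 51.4 to 55.4%, and the fibroblast gene Col1a2 at 3.53 to 8.55%. The endothelial genes Pecam1 and Cdh5 stood at 69.1 to 80.4% outside CGIs. The muscle gene Des stood at 11.4 to 12.2% in its CGI and at 79.0 to 84.2% outside it. Low levels were thus found at genes of epithelium and at some genes of stroma. The CGI of Lgr5, the stem cell marker used for the sort, stood at 0.3 to 0.5% in 3 libraries and at 3.8% in differentiated cells at P21. The CGI of the stem cell gene Ascl2 stood at 0.139 to 0.594% in the 4 libraries. Outside CGIs Ascl2 stood at 59.2% and 66.1% in ISCs at P0 and P21, and at 73.8% and 74.8% in differentiated cells. The stem cell gene Olfm4 went the other way, at 38.7% and 42.9% in ISCs and 36.7% and 31.2% in differentiated cells. The share of other cells in each sort was not tested.

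Short windows show what the measured DNA looks like at 5 of the changes described below, chosen after their values were seen. Each line gives 1 bin of 200 bases on the plus strand of mm9, with CpGs in capitals. The first 4 bins moved in the same direction in both populations, and the last moved in opposite directions.
St6galnac2, chr11:116556801-116557000, 719 bp upstream of the start site: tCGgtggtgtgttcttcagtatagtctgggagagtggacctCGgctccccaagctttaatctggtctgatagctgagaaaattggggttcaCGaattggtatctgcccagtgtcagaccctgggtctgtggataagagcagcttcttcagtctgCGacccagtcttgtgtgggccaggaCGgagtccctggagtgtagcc
Mgat3, chr15:80004801-80005000, CGI in intron 1, 750 bp downstream of the start site: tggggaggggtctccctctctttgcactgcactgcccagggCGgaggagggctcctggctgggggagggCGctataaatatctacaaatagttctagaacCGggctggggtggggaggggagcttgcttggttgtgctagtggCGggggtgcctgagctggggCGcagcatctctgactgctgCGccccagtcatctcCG
B4galnt4, chr7:148257801-148258000, spanning the end of the last intron and the last exon, which starts at 148257895: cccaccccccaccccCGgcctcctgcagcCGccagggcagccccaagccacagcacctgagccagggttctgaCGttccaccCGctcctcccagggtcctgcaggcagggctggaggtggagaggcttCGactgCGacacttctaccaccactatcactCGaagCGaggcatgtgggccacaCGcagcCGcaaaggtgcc
Galnt6, chr15:100559001-100559200, intron 1, 706 bp downstream of the start site: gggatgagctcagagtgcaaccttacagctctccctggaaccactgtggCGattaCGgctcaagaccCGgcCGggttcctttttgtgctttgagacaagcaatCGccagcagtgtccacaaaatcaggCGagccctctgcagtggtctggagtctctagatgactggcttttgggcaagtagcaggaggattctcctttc
B4galt1, chr4:40801801-40802000, 863 bp upstream of the start site: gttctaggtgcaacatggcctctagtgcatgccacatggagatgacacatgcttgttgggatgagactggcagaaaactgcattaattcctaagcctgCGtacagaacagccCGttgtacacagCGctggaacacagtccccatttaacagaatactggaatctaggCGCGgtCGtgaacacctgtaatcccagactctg
The St6galnac2 window holds 5 CpGs, the Mgat3 window 7, the B4galnt4 window 10, and the Galnt6 and B4galt1 windows 6 each. In ISCs the St6galnac2 window stood at 64.7% at P0 (116 calls) and 13.5% at P21 (141 calls), and the Mgat3 window at 36.7% (49 calls) and 70.2% (47 calls). Distances run from the start site to the middle of a bin.

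Between P0 and P21 the glycosyltransferase genes both gained and lost methylation, in small patches rather than along whole genes. In ISCs 141 of the 8004 bins gained and 163 lost. In differentiated cells 110 gained and 241 lost. Over all gene bins 1.25% gained and 1.6% lost in ISCs, against 1.76% and 2.04% of the bins of these genes, and 1.21% gained and 2.0% lost in differentiated cells, against 1.37% and 3.01%. Counts of the 2 populations, here and by family below, come from libraries of unequal depth. With calls thinned to the lowest library, 91 bins of these genes gained and 118 lost in ISCs, and 57 gained and 135 lost in differentiated cells. In ISCs 48 of the 60 genes held at least 1 called bin, and in differentiated cells 55 did, where 54.1% and 57.0% of all 20827 genes did so. A gene with more measured bins has more chances to hold a call. No bin was called in either population in 4 genes, B3galt1, B3galt4, St6gal2 and the polysialyltransferase gene St8sia4.

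A larger share of the losses than of the gains was called in both populations, a difference that was not tested. Of the 163 bins that lost methylation in ISCs, 94 also lost it in differentiated cells (57.7%, against 48.4% over all gene bins). Of the 141 that gained, 26 also gained in differentiated cells (18.4%, against 27.4%). Seen from differentiated cells, 39.0% of losses and 23.6% of gains were shared. The called bins were mostly isolated. In ISCs the 141 gaining bins formed 126 stretches, the longest of 3 adjacent bins, and the 163 losing bins formed 132 stretches, also of at most 3. The longest stretch in either population was a gain of 5 bins in B3gnt3 in differentiated cells.

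**Figure D1:**
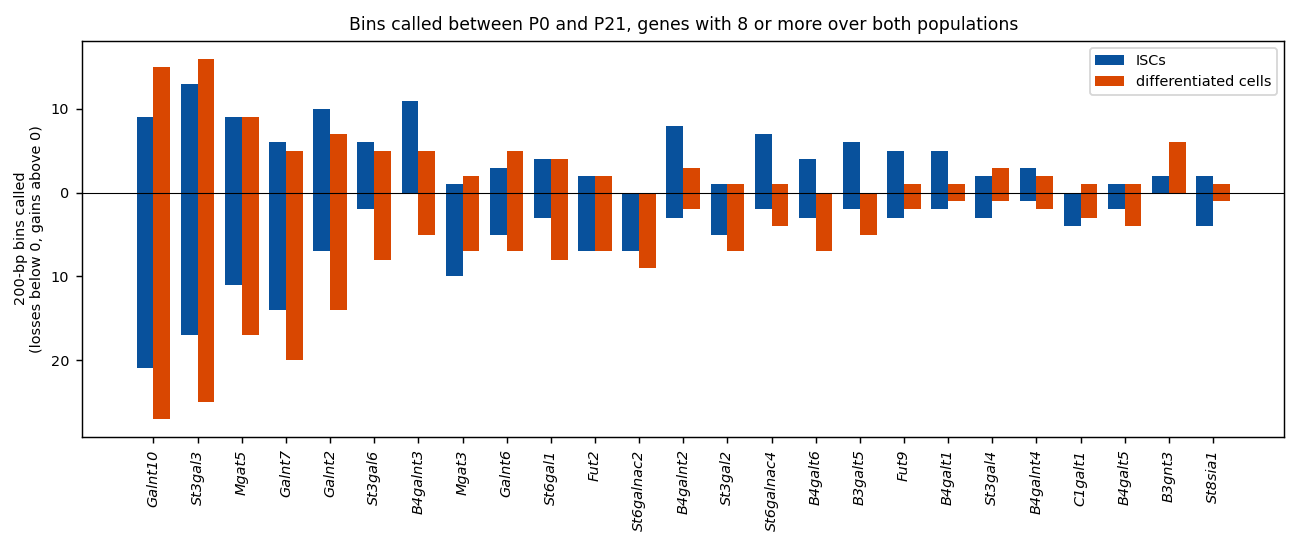
Number of 200-bp bins called between P0 and P21 (vertical axis, gains drawn upward and losses downward) in ISCs (blue) and differentiated cells (orange), for the 25 genes with 8 or more called bins over both populations. Galnt10, St3gal3, Mgat5, Galnt7 and Galnt2 lead, and losses outnumber gains in most of them, whereas B4galnt3 has 11 gains and no loss in ISCs. The leading genes also held the most measured bins, from 403 in Galnt7 to 674 in St3gal3. In ISCs 3.94% (Galnt2) to 5.75% (Galnt10) of their bins were called, so their lead is in counts and not in shares.

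CGIs at the promoters of these genes stayed nearly free of methylation. A CGI bin is one covered for at least 100 bp by windows of 500 bp with at least 25 CpGs, and a promoter is the start site with 1 kb on each side. Of the 60 genes, 50 had CGI bins at the promoter. Their median level in ISCs at P0 was 1.49%, beside 0.925% over all 12528 genes with such bins, and 39 of the 50 stayed under 5% in all 4 libraries. The highest in ISCs was Galnt6, with 18.8% and 19.1% in ISCs at P0 and P21 and 7.55% and 12% in differentiated cells. No promoter CGI of these genes was called as a whole, where 0.822% of all promoter CGIs were called in ISCs and 0.734% in differentiated cells, and the largest change in either population was 7.40 percentage points. That was St6galnac6, which stood at 9.92% and 16.8% in ISCs and at 9.87% and 17.3% in differentiated cells. St6galnac4 stood at 4.03% and 9.59% in ISCs. At the lower end of the ISC changes, B3galt6 stood at 5.79% and 3.57%, and Gcnt1, the core 2 branching gene, at 7.17% and 5.77%. In differentiated cells B3galt6 stood at 5.36% and 3.47% and Gcnt1 at 3.14% and 4.10%. No promoter CGI was found in 10 genes, among them the mucin sialyltransferase gene St6galnac1, the secretor gene Fut2, the branching gene Mgat5 and the type 1 chain gene B3galt5. The start site was that of the transcript with the longest coding sequence. For Mgat5 this lies at chr1:129203339, and another coding transcript starts far upstream at 129101563, whose promoter is not described here.

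Inside otherwise stable promoter CGIs a few single bins did change. The printed Mgat3 window rose from 36.7% to 70.2% in ISCs and from 27.2% to 65.9% in differentiated cells. Mgat3 encodes the enzyme that adds the bisecting GlcNAc to N-glycans. B3galt6, a linker enzyme of proteoglycans, went the other way at the downstream edge of its CGI. Its bin at chr4:155365801-155366000 fell from 51.0% to 29.3% in ISCs and from 51.7% to 34.4% in differentiated cells. Over all CGI bins of the 60 genes (456 bins), 10 gained and 2 lost in ISCs and 10 gained and 4 lost in differentiated cells, where 1.5% of all CGI bins in genes gained and 0.399% lost in ISCs, and 1.38% gained and 0.348% lost in differentiated cells.

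Whole regions were tested next, as the calls summed over all bins of 1 kind in 1 gene. A region was called at an adjusted p below 0.05 (Fisher's exact test, adjusted over all genes of that region class) with a move of more than 10 points. Bins of a region are covered unequally in different libraries, and the summed level can move with coverage alone, so each region was also averaged with equal weight per bin. Of the 251 regions of these genes, 16 gained and 10 lost in ISCs, and 14 and 9 of them also moved by more than 10 points with equal weights. In differentiated cells 9 gained and 12 lost, and 6 and 11 did so with equal weights. Over all 71429 regions 2.69% gained and 2.82% lost in ISCs, and 2.53% gained and 2.89% lost in differentiated cells. With equal weights as well, the shares over all regions were 2.05% and 2.11% in ISCs and 1.88% and 2.1% in differentiated cells. In both populations 11 regions moved in the same direction, 9 of them under both weightings, where 2.39% and 1.84% of all regions did so.

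Bins of CGIs more than 1 kb from the start site were found in 10 last exons and 22 gene bodies. In CGI regions of any position 2 gained and 2 lost, in each population. Over all 19265 CGI regions of all genes 2.41% gained and 0.67% lost in ISCs, and 2.26% gained and 0.426% lost in differentiated cells. The gains were both in B3gnt3, whose enzyme extends core 1 O-glycans with GlcNAc. Its body CGI, at chr8:74217001-74218000 in coding exon 2 and the end of intron 1, rose from 70.8% (68.0 to 73.4) to 82.6% (80.5 to 84.5) in ISCs and from 58.8% (57.1 to 60.4) to 80.9% (79.2 to 82.5) in differentiated cells. Its last-exon CGI rose from 70.5% to 81.4% in ISCs and from 67.3% to 81.9% in differentiated cells, but with equal weights the ISC change was 8.08 points, under the limit.

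In differentiated cells 5 adjacent bins of B3gnt3 were called, and together they went from 55.0% to 78.5%. In ISCs the same 5 bins went from 65.8% to 79.3%, and 1 of them was called. No bin of B3gnt3 was called between the populations at either age. The change of the body CGI with age was larger in differentiated cells by 10.3 points (95% interval 6.23 to 14.4, counting error only), and the difference in log odds passed a Wald test after adjustment. With equal weights the changes were 21.5 points in differentiated cells and 13.6 points in ISCs.

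The losses lay in B3galt6 and St3gal2. The last-exon CGI of B3galt6 was 1 bin, chr4:155365601-155365800, in the coding part of its only exon. It adjoins the promoter CGI bin of B3galt6 described above, and in ISCs the 2 form 1 losing stretch at the edge of the same island. In differentiated cells the stretch had 3 bins, chr4:155365601-155366200, and fell from 39.0% to 19.7%. The single bin of the last-exon CGI fell from 60% (44.6 to 73.7) to 8.33% (3.88 to 17.0) in ISCs, on 40 and 72 calls. In differentiated cells that bin fell from 68.5% (59.9 to 76.1) to 26.4% (17.6 to 37.6). The body CGI of St3gal2, which sialylates core 1 O-glycans, was also 1 bin, chr8:113493801-113494000, and fell from 25.3% to 11.8% in ISCs and from 22.9% to 10.5% in differentiated cells. The remaining last-exon CGIs were not called in either population. In every library 4 of the 10 were above 75% (Galnt4, Fut2, Mgat3 and Fut4), and Fut7 and St8sia5 lay between 42.8% and 55.3%. In ISCs St8sia5 stood at 55.3% and 48.0% and Fut7 at 46.0% and 50.0%, while St3gal2 was low at 2.29% and 0.939%. Of the 10, 6 belong to genes with a single coding exon, in which the last exon holds the whole coding sequence. At the ends of the range of body CGIs, B3gnt5, the glycolipid extension gene, stood at 3.86% and 13.4% in ISCs and at 3.26% and 3.8% in differentiated cells, and Galnt2 stood at 83.6% and 74.7% in ISCs and at 79.3% and 79.6% in differentiated cells, neither of them called. The median change of the 10 last-exon CGIs in ISCs was -0.110 points, beside 0.639 points over the 1643 last-exon CGIs of all genes.

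**Figure D2:**
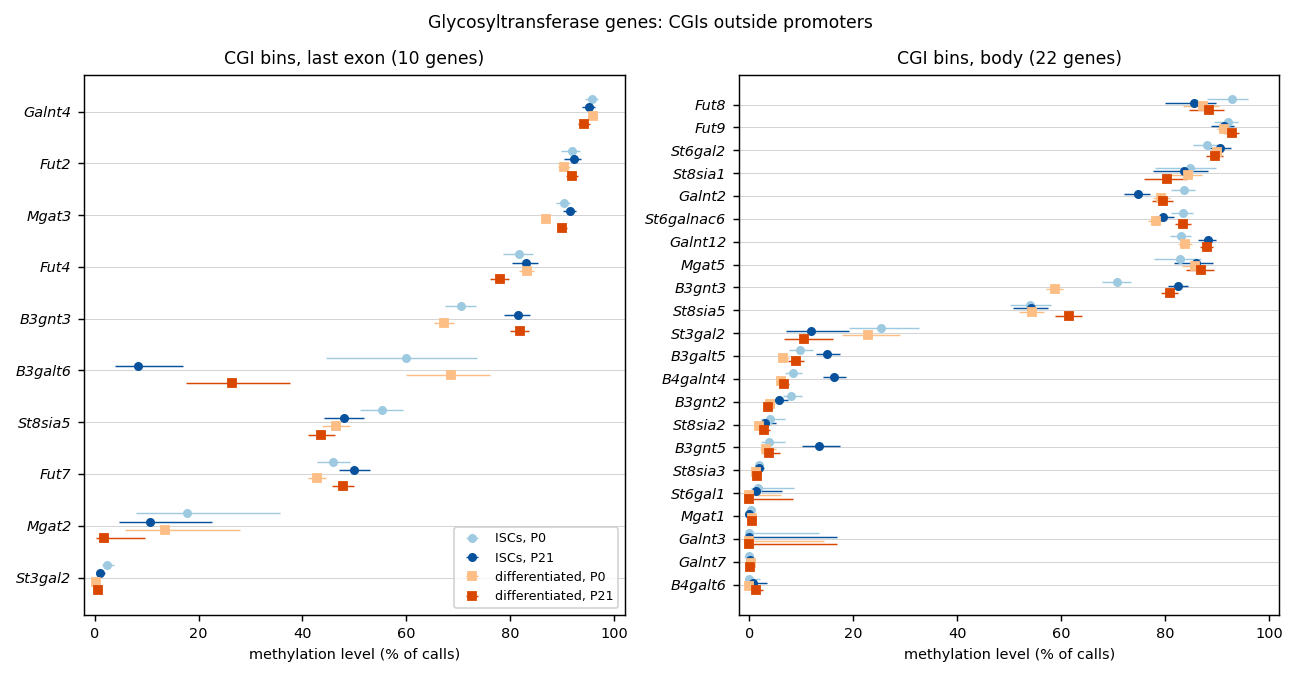
Methylation level (horizontal axis, percent of calls) of CGI bins in the last exon (left, 10 genes) and in the gene body (right, 22 genes), for ISCs (circles) and differentiated cells (squares) at P0 (light) and P21 (dark), with 95% Wilson intervals. Levels sit mostly near 0 or above 75% and overlap between libraries, while B3gnt3 moves up in both panels and B3galt6 and St3gal2 move down.

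Promoter bins outside CGIs carried most of the called regions. Of 58 genes with such bins, 10 gained and 5 lost in ISCs, and 5 gained and 7 lost in differentiated cells. Over all 18828 genes with such bins 4.54% gained and 5.76% lost in ISCs, and 4.42% gained and 5.88% lost in differentiated cells. The median level at P0 in ISCs was 42.1%, beside 54.7% over all genes. By single bins, 9 of 176 gained and 9 lost in ISCs, and 3 gained and 13 lost in differentiated cells. The shares over all genes were 1.78% and 2.46% in ISCs and 1.9% and 3.03% in differentiated cells.

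St6galnac2, which adds sialic acid to the GalNAc of O-glycans, lost most. Its promoter bins at chr11:116556601-116557200 fell from 56.5% (52.8 to 60.2) to 22% (18.9 to 25.4) in ISCs and from 54.5% (51.9 to 57.1) to 23.0% (20.5 to 25.7) in differentiated cells. Within each age the populations overlapped, and the ages did not. Losing bins lay on both sides of the start site. The promoter CGI as a whole was low at P0, at 2.11% in ISCs and 4.14% in differentiated cells, but its outermost upstream bin stood at 14.2% and 26.1% and was called as a loss in differentiated cells, where it fell to 2.65%. In intron 1, chr11:116554801-116555200 fell from 49.1% to 8.11% in ISCs and from 48.3% to 3.05% in differentiated cells. In all, 7 bins of St6galnac2 lost methylation in ISCs, 9 in differentiated cells and 6 in both, and none gained.

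B3galt2, a beta-3-galactosyltransferase gene, lost at its promoter too, from 65.5% to 34.4% in ISCs and from 53.2% to 26.4% in differentiated cells. This gene lies within the span of Cdc73 on the other strand, so the region belongs to both. Galnt6, an enzyme that starts O-glycans, fell from 41.1% to 23.2% in ISCs and from 39.9% to 16.6% in differentiated cells, though with equal weights the changes were -8.88 points in ISCs, under the limit, and -13.5 points in differentiated cells. The loss in Galnt6 lay in intron 1 and ran past the limit of the promoter. Its bin at chr15:100558601-100558800, just beyond the promoter, fell from 74.8% to 34.8% in ISCs and from 72.9% to 36.7% in differentiated cells. At Fut1, which makes the H antigen as Fut2 does, 1 bin at 675 bp upstream fell from 31.5% to 6.48% in ISCs and from 30.7% to 10.4% in differentiated cells.

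By the rule for regions, Galnt3 and St3gal4 gained at their promoters in both populations, although no single promoter bin outside CGIs was called as a gain in both. Galnt3, another enzyme that starts O-glycans, had 1 bin outside its CGI, with 32 to 52 calls, which rose from 23.5% (12.4 to 40) to 57.7% (44.2 to 70.1) in ISCs and from 7.89% (2.72 to 20.8) to 34.4% (20.4 to 51.7) in differentiated cells. The intervals are wide at this depth, and in neither population did this bin pass the stricter rule for single bins. St3gal4, which sialylates N-acetyllactosamine, rose from 30.9% to 48.0% in ISCs and from 24.7% to 39.1% in differentiated cells over 3 bins that also overlap a lincRNA.

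Other promoters were called in ISCs and not in differentiated cells. The promoter of St3gal5, the GM3 ganglioside synthase gene, rose from 55.3% to 80.5% in ISCs and stood at 64.0% and 71.7% in differentiated cells. With equal weights the ISC change of St3gal5 was 14.5 points, below the 25.3 of the summed calls. St6galnac1, which makes the sialyl-Tn antigen, rose from 62.4% to 79.0% in ISCs and stood at 69.3% and 69.9% in differentiated cells. For St6galnac1 the change in differentiated cells minus that in ISCs was -15.9 points (-24.4 to -7.47) and passed the Wald test after adjustment, whereas for St3gal5 it was -17.6 points (-29.8 to -5.36) and did not. B3gnt7 rose from 23.7% to 38.8% in ISCs and stood at 17.9% and 25% in differentiated cells. The core 1 sialyltransferase gene St3gal1 fell from 66.0% to 50.2% in ISCs and stood at 54.3% and 50.9% in differentiated cells, and here the difference between the changes was 12.4 points (5.06 to 19.6) and passed. In differentiated cells and not in ISCs, 6 promoters were called. B4galt2 rose from 83.3% to 96.9%, B4galt7 fell from 47.2% to 30.8% and St8sia5 fell from 76.0% to 57.9%, each also past the limit with equal weights. Galnt2 (56.3% to 66.4%), St3gal2 (37.7% to 53.1%) and B4galt3 (68.5% to 58.4%) were under the limit with equal weights. Their changes were then 6.48, 6.65 and -0.0590 points, so that of B4galt3 all but vanished. The promoter regions of B4galt2, Galnt2 and St3gal2 also overlap Gm12841, Gm20388 and Gm17642, in that order. Whether these 6 changes differ from those in ISCs is not read from the calls.

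**Figure D3:**
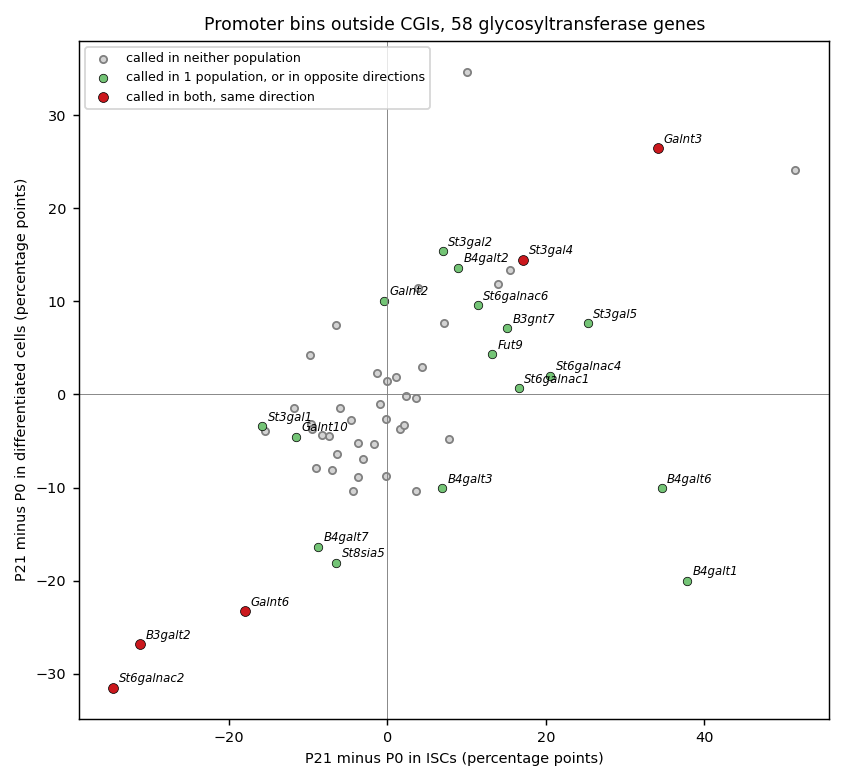
Change of methylation between P0 and P21 in promoter bins outside CGIs, in ISCs (horizontal axis) against differentiated cells (vertical axis), in percentage points, with 1 point for each of 58 genes. Called genes are labelled and coloured by whether both populations were called in the same direction. St6galnac2, B3galt2 and Galnt6 lie at the lower left and Galnt3 and St3gal4 at the upper right, while B4galt1 lies at the lower right, rising in ISCs and falling in differentiated cells. The axes share the same 4 libraries, and no test of their correlation was made.

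Outside CGIs, last exons were called rarely, with 3 gains and 3 losses among 59 genes in ISCs and 2 gains and 2 losses in differentiated cells. Over all 16007 genes 2.81% gained and 2.97% lost in ISCs, and 2.47% gained and 3.31% lost in differentiated cells. B4galnt4, which makes LacdiNAc by adding GalNAc to GlcNAc, rose in its printed window, which is partly intron and was counted to the last exon because at least 100 bp lie in it, from 20% (11.6 to 32.4) to 53.5% (45.3 to 61.4) in ISCs, on 55 and 144 calls, and from 26.1% (20.6 to 32.4) to 46.4% (39.2 to 53.7) in differentiated cells. In the body of B4galnt4, chr7:148256801-148257200 is partly CGI and rose from 32.5% to 52.9% in ISCs. Differentiated cells stood at 34.7% and 40.1% there, and neither bin was called as a gain. The study named B4galnt4 from these same libraries, so its gain is no independent evidence of a direction. It counted B4galnt4 among 3' CGI genes from another list of CGIs, whereas the printed window lies outside CGIs as defined here. Its relative B4galnt3 rose from 77.1% to 87.6% in ISCs over the last exon and stood at 80.4% and 85.7% in differentiated cells. St6galnac6 rose from 73.1% to 87.1% in ISCs, beside 71.8% and 78.8% in differentiated cells, where the change was 10.3 points and past the limit with equal weights.

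Losses in last exons were found in Fut2, Galnt4, St3gal5 and Mgat2. Fut2 adds the fucose that marks secreted mucins. Its last exon outside the CGI fell from 76.9% (73.5 to 80) to 60.3% (56.8 to 63.7) in ISCs, and differentiated cells stood at 78.9% and 71.0%, a change of -7.92 points that was -14.9 and past the limit with equal weights. The Fut2 loss came from the noncoding end of the exon, where chr7:52905201-52905600 fell from 73.4% to 22.8% in ISCs and stood at 91.1% and 48.4% in differentiated cells, in which 1 of its 2 bins was called. The coding CGI of the same exon stayed at 91.8% and 92.2% in ISCs. The last exon of Galnt4, which overlaps Poc1b, fell from 83.4% to 66.4% in ISCs and stood at 80.5% and 74% in differentiated cells, where the change was -16.0 points and past the limit with equal weights. St3gal5 fell in both populations, from 72.1% to 61.0% in ISCs and from 84.3% to 67.9% in differentiated cells. The last exon of Mgat2, which starts the other main antenna of complex N-glycans and overlaps 1110034A24Rik on the opposite strand, fell from 71.2% to 49.0% in differentiated cells and stood at 64.7% and 54.3% in ISCs.

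Averaged over whole gene bodies outside CGIs, the methylation of these genes hardly moved. The median level of the 52 bodies was 77.4% in ISCs at P0 and 77.6% at P21. In each population 1 body was called, B3gnt7 as a gain in ISCs (43.8% to 64.5%, 1 bin) and B3galt2 as a loss in differentiated cells (84.2% to 65.7%, 4 bins), where 2.78% of all 17329 bodies were called in ISCs and 2.83% in differentiated cells. Among bodies with at least 100 calls in each library, ISC changes ran from Gcnt3 (38.7% and 29.6%) and St6galnac1 (87.6% and 79.2%) at the lower end to St6galnac4 (59.6% and 68.2%) and Fut2 (55.8% and 64.5%) at the upper end, and these were not called.

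Single bins within those bodies did change. Bins of gene bodies outside CGIs accounted for 258 of the 304 calls in ISCs and 302 of the 351 in differentiated cells, and they made up a slightly larger share of the bins measured, 6978 of 8004. Over all gene bins 2.85% were called in either direction in ISCs and 3.21% in differentiated cells, and the shares of each enzyme family are given beside its counts below. By family, the genes that start O-glycans had 31 gains and 50 losses in ISCs and 33 gains and 73 losses in differentiated cells, in 2058 bins (3.94% and 5.15% called). Galnt10 alone had 9 gains and 21 losses in ISCs, in 522 bins (5.75% called). In its losing bins the median level went from 72.7% to 38.9% in ISCs, and 14 of the 21 were also called as losses in differentiated cells. The stretch chr11:57514801-57515200 in intron 1 fell from 49.7% to 12.4% in ISCs and from 54.0% to 9.29% in differentiated cells.

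Galnt7 and Galnt2 had similar short losses in their first introns. In Galnt7, 14 bins lost methylation in ISCs, 10 of them also in differentiated cells, and chr8:60094401-60094800 fell from 54.6% to 18.8% in ISCs and from 69.0% to 14.1% in differentiated cells. In Galnt2, chr8:126808801-126809200 fell from 55.5% (48.0 to 62.7) to 10.4% (6.90 to 15.4) in ISCs and from 61.7% to 16.1% in differentiated cells. Gains lay beside these losses in the same introns. Galnt2 had 10 gaining and 7 losing bins in ISCs, and 2 of the gains but 5 of the losses were shared with differentiated cells. Galnt6 gained in and beside coding exon 5, where chr15:100534201-100534800 rose from 45.6% to 77.3% in differentiated cells and stood at 60.8% and 75.1% in ISCs. Among core and branching enzymes of O-glycans (380 bins, 2.11% and 3.42% called), 1 bin gained and 7 lost in ISCs, and 3 gained and 10 lost in differentiated cells. C1galt1, the core 1 synthase gene, accounted for 4 of the ISC losses, for example 48.4% to 16.7% in a bin 12659 bp from the start site, where differentiated cells fell from 52.0% to 15.3%. The I-branching gene Gcnt2 had 3 losing bins in ISCs, with medians of 28.4% and 6.76%, and the same bins stood at 26.1% and 18.4% in differentiated cells, with none called.

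The N-glycan branching genes had 10 gains and 23 losses in ISCs in 674 bins (4.90% called, and 5.79% in differentiated cells), and 16 of the losses were shared by both populations. Mgat3 lost methylation in 10 bins of a stretch of 8000 bp in intron 1, between 13150 and 20950 bp from the start site. Their median level went from 53.2% to 10.8% in ISCs, and 6 of the 10 were also called in differentiated cells, with medians of 53.2% and 9.99%. Between the losing bins lay others that were already near 0 at P0, and others that were not called and stayed high. In ISCs the bin at 14150 bp stood at 91.8% and 93.5%, and the bin at 17150 bp at 73.6% and 70.2%. The stretch chr15:80024401-80024800 fell from 61.5% (52.6 to 69.6) to 16% (9.63 to 25.5) in ISCs and from 54.6% to 9.42% in differentiated cells. Mgat5, which adds the beta-6 branch, had 11 losing bins in ISCs with a median level of 64.3% at P0 and 15.9% at P21, and 8 were shared with differentiated cells. It also had 9 gaining bins, with medians of 50.6% and 81.6%, of which 2 were shared. Its stretch chr1:129294401-129294800 in intron 9 fell from 33.3% to 0 of 97 calls in ISCs, where 3 counts of 97 set a limit of 3.09%, and in differentiated cells from 35.7% to 8.64%.

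**Figure D4:**
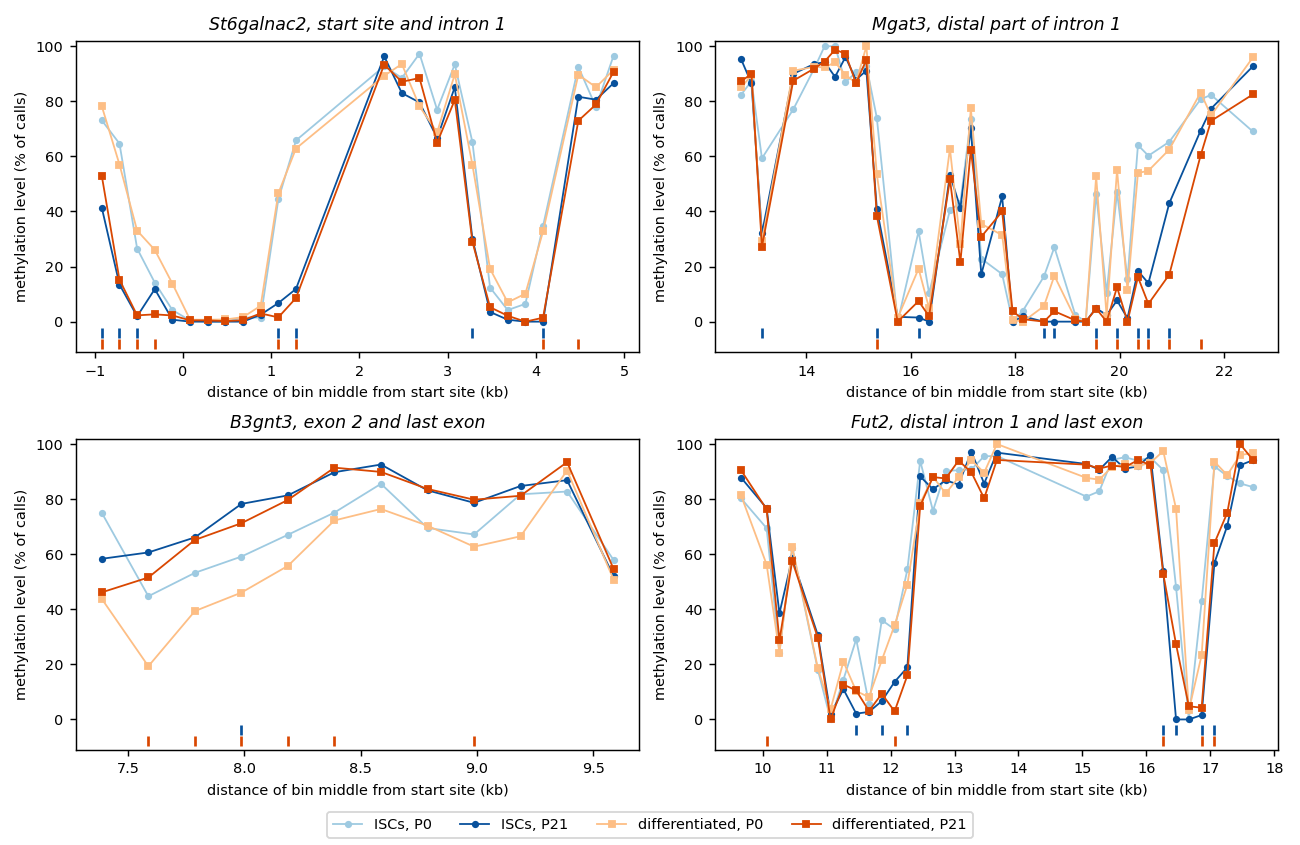
Methylation level (vertical axis, percent of calls) of single 200-bp bins against distance from the start site (horizontal axis, kb) in parts of St6galnac2, Mgat3, B3gnt3 and Fut2, for the 4 libraries. Lines only join neighbouring measured bins, and ticks under the curves mark bins called between P0 and P21 in ISCs (blue, upper row) and differentiated cells (orange, lower row). The P21 curves fall below the P0 curves at the flanks of low dips in St6galnac2, Mgat3 and Fut2 and rise above them in B3gnt3.

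The sialyltransferases that cap chains with alpha-2,3 linkages (1307 bins, 3.98% and 5.59% called) had 24 gains and 28 losses in ISCs and 27 gains and 46 losses in differentiated cells. St3gal3, which caps N-acetyllactosamine, held 13 of the gains and 17 of the losses in ISCs, in 674 bins (4.45% called). Its stretch chr4:117737201-117737600 in intron 2 fell from 83.9% (78.5 to 88.1) to 21.1% (16.6 to 26.4) in ISCs and from 74.6% to 14.2% in differentiated cells. In the same intron, chr4:117742201-117742800 rose from 18.6% (14.5 to 23.5) to 61.7% (54.1 to 68.7) in ISCs and stood at 33.3% and 56.2% in differentiated cells, where 2 of its 3 bins were called. St3gal2 lost in intron 3, where chr8:113489201-113489600 fell from 66.7% to 26.8% in ISCs and from 68.6% to 24.6% in differentiated cells. St3gal4 had 3 losing bins in intron 1 in ISCs, with medians of 71.4% and 38.6%, of which 1 was shared. St3gal6 had 6 gaining bins in ISCs, with medians of 42.5% and 70.3%, and 1 of them gained in differentiated cells.

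Among the enzymes of alpha-2,6 linkages (685 bins, 4.09% and 4.82% called) 14 bins gained and 14 lost in ISCs, and 9 gained and 24 lost in differentiated cells. St6gal1, which caps N-glycans, had 4 gaining bins in ISCs with medians of 28.1% and 71.8% and 3 losing bins with medians of 60.6% and 43.0%, and in each direction 1 was shared with differentiated cells. The alpha-2,8 family (876 bins, 1.48% and 0.799% called), which builds polysialic acid and complex gangliosides, had 5 gains and 8 losses in ISCs and 2 gains and 5 losses in differentiated cells, and none of its bins was called in the same direction in both. For St8sia1, the GD3 synthase gene, the 4 losing bins in ISCs went from a median of 55.3% to 31.0%, and the same bins stood at 45.3% and 44.3% in differentiated cells. The fucosyltransferase genes (493 bins, 4.46% and 3.85% called) had 9 gains and 13 losses in ISCs, of which Fut2 held 7 losses. Fut9 had 5 gaining bins in ISCs, with medians of 72.1% and 91.8%, and 3 losing bins, with medians of 89.6% and 64.5%, and none was shared with differentiated cells. Fut8, which adds the core fucose of N-glycans, had 1 shared bin in intron 2 that fell from 85.3% to 41.7% in ISCs and from 82.2% to 15.8% in differentiated cells.

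More gains than losses in ISCs were found in 3 families. The beta-4-GalNAc transferase genes (451 bins, 5.76% and 4.21% called) had 22 gains and 4 losses in ISCs, and 10 gains and 9 losses in differentiated cells. B4galnt3 had 11 gaining bins in ISCs, spread over 72600 bp, whose median level went from 28.9% to 60.9%. In differentiated cells the same bins had medians of 47.3% and 58.3%, and 2 of the 11 were called. B4galnt2, which makes the Sda antigen of colon, had 8 gaining bins in ISCs, from a median of 53.8% to 79.3%, and differentiated cells stood at 66.1% and 76.9% in them, with 1 called. It also had 3 losing bins in ISCs, 1904 to 5304 bp from the start site, with medians of 40.4% and 6.76%. Differentiated cells stood at 29.8% and 20.9% in those, with none called.

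The beta-galactosyltransferase genes (940 bins, 3.40% and 3.19% called) had 19 gains and 13 losses in ISCs but 3 gains and 27 losses in differentiated cells, and no gain was shared. B3galt5, which makes type 1 chains, had 6 gaining bins in ISCs in intron 2, from a median of 24.9% to 53.5%. In differentiated cells the same 6 bins had medians of 35.7% and 36.5%, and none was called, but the bins were chosen by their ISC call. B4galt1, the main beta-4-galactosyltransferase gene, had 5 gaining bins in ISCs, of which none gained in differentiated cells. Its stretch chr4:40765201-40765600 in intron 2 rose from 49.0% to 81.2% in ISCs, beside 62.6% and 69.0% in differentiated cells. B4galt6, a lactosylceramide synthase gene, had 4 gaining and 3 losing bins in ISCs, and 1 loss was shared. The genes of GlcNAc extension (140 bins, 6.43% and 8.57% called) had 6 gains and 3 losses in ISCs, and the 3 losses were all in B3gnt2, the polylactosamine gene, with medians of 44.9% and 8.57%.

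Bins called in opposite directions in the 2 populations numbered 4 of 8004, beside 154 of 1885605 over all genes. The printed B4galt1 window rose from 18.8% (13.2 to 26.2) to 56.7% (48.9 to 64.2) in ISCs and fell from 47.8% (41.7 to 54.0) to 27.8% (21.9 to 34.6) in differentiated cells. A bin in the noncoding end of the last exon of St6galnac4 rose from 38.8% to 70.9% in ISCs and fell from 78.0% to 34.4% in differentiated cells. St3gal6, in intron 1, rose from 64.9% to 92.6% in ISCs and fell from 75.6% to 54.0% in differentiated cells. Galnt10, also in intron 1, fell from 63.9% to 38.9% in ISCs and rose from 36.7% to 57.5% in differentiated cells. At B4galt1 and St6galnac4 the populations differed at both ages and exchanged their order. St6galnac4 had 7 gaining bins in ISCs, from a median of 23.1% to 59.3%. In differentiated cells none of them gained and their medians were 38.2% and 38.7%, but these bins too were chosen by their ISC call.

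**Figure D5:**
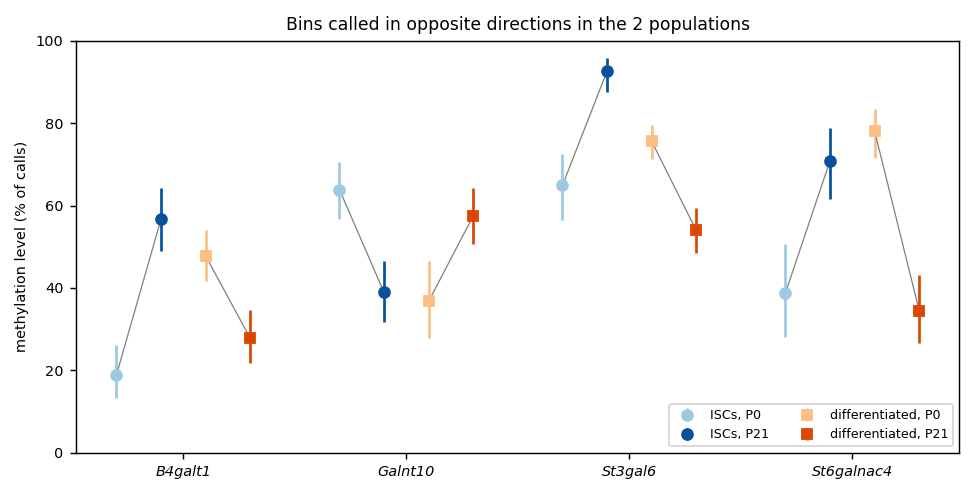
Methylation level (vertical axis, percent of calls, with 95% Wilson intervals) of the 4 bins called in opposite directions, for ISCs (circles) and differentiated cells (squares) at P0 (light) and P21 (dark). Grey lines join the ages of 1 population, and they cross direction in each gene. In B4galt1, ISCs go from 18.8% to 56.7% and differentiated cells from 47.8% to 27.8%.

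The populations differed from each other in few bins. At P0, 58 bins differed (0.725%, against 0.508% over all gene bins), 36 higher and 22 lower in differentiated cells. At P21, 26 differed (0.325%, against 0.182%), 3 higher and 23 lower in differentiated cells. These bins lay in 29 and 16 genes. In St3gal5, 1 bin of intron 1, chr6:72065201-72065400, was lower in differentiated cells at both ages, 53.3% against 78.5% in ISCs at P0 and 60.8% against 84.1% at P21. Most of the other P0 differences were not called at P21. In St3gal3 intron 1, chr4:117790201-117790400 went from 89.2% to 12.2% in ISCs, while differentiated cells stood at 32.4% and 33.3%. In the promoter CGI of Fut4, chr9:14555601-14555800 stood at 37.4% and 47.7% in ISCs, below the 58.7% and 63.0% of differentiated cells.

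At P21 the differences gathered in St3gal6, with 5 of the 26 bins, all lower in differentiated cells and all in introns. The B3galt5 bin at chr16:96505201-96505400 stood at 60.9% in ISCs and 32.7% in differentiated cells at P21, against 31.8% and 41.3% at P0. In the last exon of B3gnt7, 1 bin stood at 70.6% in ISCs and 52.7% in differentiated cells at P21. Of the whole regions, 9 differed between the populations at P0 and 10 at P21, but 4 and 5 did so under both weightings, beside 3.07% and 2.31% of all regions, and 1.07% and 0.75% of them under both weightings. None is named here, because bins were covered unequally between the sorts.

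A further 52 glycosylation genes outside the 60 were chosen by function, with earlier results of these data known. Some, among them Gal3st1 and AI464131, were named by the study from these libraries, and the counts include them. The 52 genes had 222 regions, of which 9 gained and 4 lost in ISCs and 8 gained and 7 lost in differentiated cells. Over all regions the shares were 2.69% and 2.82% in ISCs and 2.53% and 2.89% in differentiated cells. Last-exon CGIs of the 52 genes held larger gains than any in the 60 genes. Gal3st1, a sulfotransferase gene of glycolipids, rose from 48.9% to 80.1% in ISCs and from 49.0% to 79.8% in differentiated cells. AI464131 rose from 25.1% to 68.7% in ISCs and from 27.7% to 68.9% in differentiated cells, and fell from 84.8% to 36.9% in ISCs in the rest of its last exon. The same caution as for B4galnt4 holds for both, which the study also named from these libraries. Ext2, a heparan sulfate polymerase gene, rose in the last exon outside CGIs from 35% to 53.8% in ISCs and from 28.6% to 52.8% in differentiated cells.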

How the data were processed

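Whole-genome bisulfite sequencing of 4 libraries (1 per group) was analysed. The submitters' processing notes name Bismark and Bowtie. For each library, the deposited counts of all calls and of methylated calls per cytosine position on mm9 were used. A deposited methylation fraction was not used. Calls were summed per reference CpG and bin. At 0.469 to 0.860% of autosomal positions the reference held no CpG, and these were left out. Gene models were GENCODE M1 (transcript with the longest coding sequence). A bin went to the promoter first, then to the last exon, then to the body, and CGI bins were kept apart. Fisher's exact tests, and Wald tests of the difference between 2 changes (0.5 added to each count), were Benjamini-Hochberg adjusted. The Fisher's exact tests were also run on simulated data, and the Wald tests were not. In data simulated without any change, regions summed over unequally covered bins still gave calls, so equal bin weights were added after this was seen.

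Python 3.11.15, numpy 2.4.6, pandas 2.3.3, scipy 1.17.1, numba 0.67.0 and matplotlib 3.10.9 were used. The named genes were those with a region called in the same direction in both populations, those with 3 or more bins called in 1 direction in ISCs, and those with the 2 largest gains and 2 largest losses in ISCs per region class among regions with at least 100 calls in each library. Further members were named after their values were seen. The 60 genes and the other lists were chosen with earlier results of these data known. Alternatives changed the bin grid, the minimum of calls and CpGs, the CGI definition, the start site, the thresholds, the weighting and the depth. Sex chromosomes were not analysed here.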

Additional observations from a re-analysis of the deposited data

Results flagged for a closer look

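At some regions the change with age differed between the populations by a Wald test on log odds that covers counting error only, with p-values adjusted over all regions of a class and below 0.05. Values are the change in differentiated cells minus that in ISCs, in percentage points. At the 4 bins called in opposite directions, which were chosen for that and so carry no test of the difference, it was -57.8 in B4galt1 (the only promoter bin outside its CGI), 45.7 in Galnt10, -49.3 in St3gal6 and -75.7 in St6galnac4. Among promoters outside CGIs it was -44.7 in B4galt6, where 1 bin had 23 to 104 calls, -18.6 in St6galnac4, -15.9 in St6galnac1 and 12.4 in St3gal1. St6galnac4, whose promoter region overlaps Gm17343 on the other strand, also differed over its last exon (-18.4) and its body (-10.7) outside CGIs. Over all bins, those 4 included, the test passed in 22 of 8004 bins of these genes (0.275%), beside 0.150% of all bins. It passed in 32 of 251 regions (12.7%), beside 5.76% of the regions of all genes. These region counts used summed calls and set no limit on the size of the difference, so they can include regions moved by unequal coverage. The regions named here also differed by more than 10 points with equal weight per bin, and the share of all regions that did so was not counted. The part of unequal coverage or of the makeup of the sorted cells was not tested.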

How the results depend on the processing

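No paired analysis was possible because each group had 1 library, and for the same reason no library could be left out. Counts of called bins are given as ISC gains, ISC losses, differentiated gains, differentiated losses, P0 differences and P21 differences. As reported they were 141, 163, 110, 241, 58 and 26. Without a test they were 550, 591, 385, 596, 704 and 649. With a limit of 30 points they were 48, 90, 21, 100, 21 and 8. With at least 4 CpGs a bin they were 100, 92, 71, 126, 36 and 29. With calls thinned to the lowest library they were 91, 118, 57, 135, 15 and 8, so depth limits these counts. With an unadjusted p below 0.0001, chosen after seeing the data, they were 81, 105, 62, 169, 38 and 25. The shifted grid and the minimums of 20 and 40 calls kept every bin count within 1.5 times.

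Counts of called regions, in the same order, were 16, 10, 9, 12, 9 and 10 as reported. They were 10, 7, 4, 10, 2 and 2 past 15 points, 29, 21, 16, 25, 23 and 31 past 5 points, 17, 9, 8, 14, 4 and 6 with the mean of bin levels, and 14, 9, 6, 11, 4 and 5 under both weightings, which were chosen after seeing the data. With thinned calls they were 12, 9, 5, 13, 3 and 2. With CGI windows of 35 CpGs 5 regions lost in ISCs and 7 in differentiated cells, and on the shifted grid 3 differed at P21. Among changes called as reported or in the changed setting, direction turned in 3 promoters outside CGIs. Changes called in neither setting turned as well, for example B4galt7 in ISCs, from -8.70 to 0.652 with the mean of bin levels. In Fut9 the ISC change was -0.176 with the mean of bin levels. In St6galnac6 the change in differentiated cells was -18.5 from the start site farthest upstream. In B4galt3 it was 1.87 with at least 4 CpGs and 1.30 with thinned calls. The cause was not tested beyond the smaller sets of bins or calls that these settings use.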
